A study of Mus musculus with 6 samples.

Results

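Matrix metalloproteinases (MMPs) and their tissue inhibitors (TIMPs) were examined at the transcript level in mouse bone marrow mesenchymal stem cells (BMMSCs) after knockdown of the DNA demethylases Tet1 and Tet2. The 10 genes, out of 36870 distinct symbols in the RNA-seq table, were taken by symbol: Mmp2, Mmp3, Mmp8, Mmp9, Mmp12, Mmp13, Mmp14, Mmp19, Timp1 and Timp2. Each had a single row, and the question was how the enzymes typical of stroma, Mmp2 and Mmp13 above all, compared with the enzymes typical of leukocytes, Mmp8, Mmp9 and Mmp12.

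The table holds 6 libraries, 3 from control BMMSCs and 3 from BMMSCs given Tet1 and Tet2 siRNA together. All came from C57BL/6 mice and were the adherent fraction of cultured marrow, labelled passage p2 although the methods describe passage 1 cells. The labels name non-targeting siRNA as the control, while the account of the sequencing names vehicle-treated cells, so what the controls received cannot be settled here. Neither source gives the age of the mice behind the siRNA cultures, says how long after siRNA the RNA was taken, or states whether the libraries came from separate animals or cultures. The p-values therefore measure the spread between these samples, which may be technical.

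MMPs are zinc-dependent endopeptidases that cut collagens, proteoglycans and other matrix and cell-surface proteins. They are made as inactive proenzymes and are held in check by TIMPs, which block the active site. In bone marrow, stromal and osteoblast-lineage cells are known sources of Mmp2, Mmp13 and Mmp14, whereas Mmp8 is the collagenase of neutrophil granules, Mmp9 is made by neutrophils and osteoclasts, and Mmp12 is the elastase of macrophages.

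The siRNA lowered Tet2, which measured 2.57, 4.08 and 3.71 RPKM (reads per kilobase of transcript, scaled to the mapped reads of the library) in the controls and 0.358, 0.238 and 0.202 RPKM after siRNA (adjusted p = 2.88e-05). Adjusted p-values are from limma on log2(RPKM + 1) over the 13266 genes whose mean reached 0.1 RPKM, corrected by the Benjamini-Hochberg method, and a gene was called below 0.05. Tet1 was at 0.032 to 0.098 RPKM in the controls and at 0.001 to 0.01 RPKM after siRNA, under the minimum for testing, and Tet3 was not called (adjusted p = 0.508). The labelled cell type was checked against markers. The stromal collagen gene Col1a1 averaged 488 RPKM in the controls, and the macrophage genes Lyz2, C1qb, C1qc and Adgre1 (F4/80) averaged 4439, 1242, 1131 and 305 RPKM. These bulk libraries thus hold RNA of both stromal and macrophage kind, and fewer cells of a type cannot be told apart from less RNA per cell. Libraries of the same group correlated with r between 0.992 and 0.997, and the depth, estimated from the steps between low values, was 32400000 to 38700000 reads per library.

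All 10 genes reached the minimum for testing. After siRNA, 6 were lower (Mmp2, Mmp3, Mmp13, Mmp14, Timp1 and Timp2), 2 were higher (Mmp8 and Mmp19) and 2 were not called (Mmp9 and Mmp12). Over all genes tested, 29.8% were called lower and 14.7% higher, 44.5% in either direction, so a call by itself was common in this comparison. A further rule asked for an unadjusted p under 0.05 and more than a 2-fold change in RPKM + 1. By it 3 members were lower (Mmp2, Mmp3 and Mmp13) and 1 was higher (Mmp8). Of all genes, 5.63% were lower and 0.95% higher. Because 1 was added, genes at low RPKM pass this rule less easily than a 2-fold change in RPKM itself. The control and siRNA libraries did not overlap for 9 members, 7 lower and 2 higher, against 35.9% lower and 19.8% higher over all genes, and overlapped for Mmp12 alone.

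**Figure D1:**
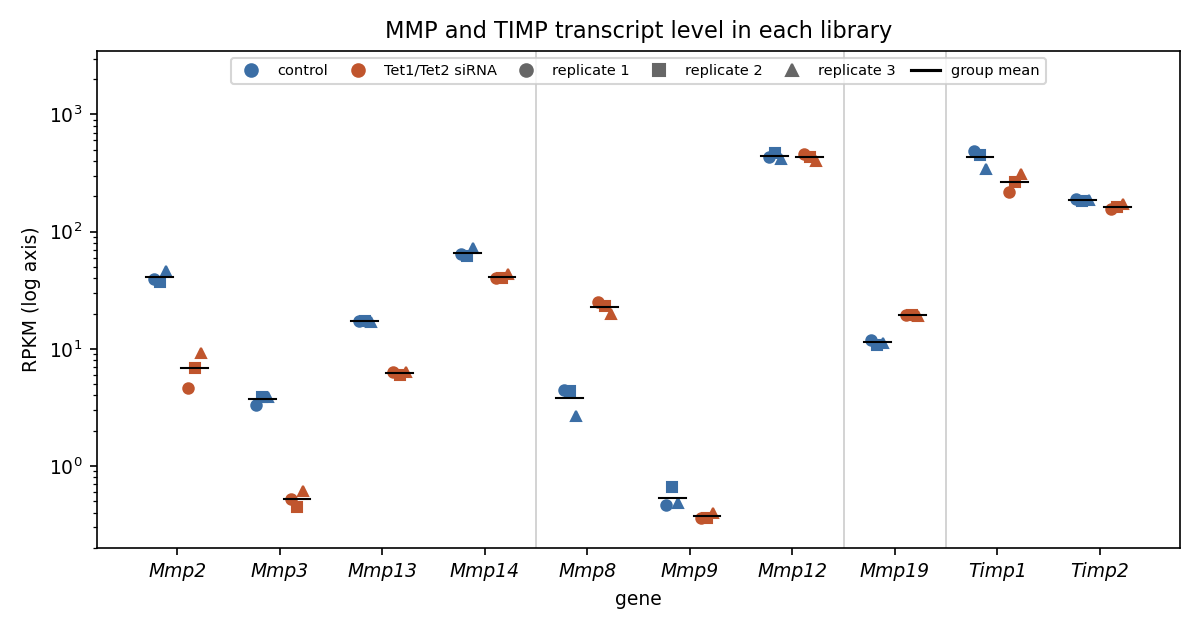
RPKM of the 10 genes on a log axis in each of the 3 control and 3 Tet1/Tet2 siRNA libraries, with bars at the group means and symbols marking the replicate number. The siRNA points of Mmp2, Mmp3, Mmp13 and Mmp14 lie under the control points, those of Mmp8 and Mmp19 lie above them, and those of Mmp12 lie among them.

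The members spanned a wide range of transcript levels per length. In control BMMSCs Mmp12 had the highest mean RPKM and Mmp9 the lowest, in the order Mmp12, Timp1, Timp2, Mmp14, Mmp2, Mmp13, Mmp19, Mmp8, Mmp3 and Mmp9. The libraries of neighbours overlapped only between Mmp12 and Timp1 and between Mmp8 and Mmp3. After siRNA the order was Mmp12, Timp1, Timp2, Mmp14, Mmp8, Mmp19, Mmp2, Mmp13, Mmp3 and Mmp9, and only Mmp2 and Mmp13 overlapped. Mmp8 moved from eighth place to the fifth and Mmp2 from the fifth to the seventh.

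The enzymes of stromal cells fell, all 4 of them. Mmp2 (gelatinase A; ENSMUSG00000031740, chr8:92827291-92853420, GRCm38, plus strand) digests denatured and basement membrane collagen. It measured 39.3, 37.3 and 45.8 RPKM in the controls and 4.67, 6.89 and 9.21 RPKM after siRNA. Every siRNA library was far below every control. The mean went from 40.8 ± 4.47 to 6.92 ± 2.27 RPKM (SD, n = 3 each), 5.89-fold lower, and the log2 change was -2.43 (SE 0.19, adjusted p = 3.85e-05). An estimated 3810 to 4570 reads lay behind the control values and at most 1009 behind the siRNA values.

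Mmp3 (stromelysin-1; ENSMUSG00000043613, chr9:7445822-7455975, plus strand) cuts proteoglycans and activates other proMMPs. Its level was 3.34, 3.90 and 3.86 RPKM in the controls and 0.518, 0.444 and 0.610 RPKM after siRNA. The groups were well apart, at 3.70 ± 0.313 against 0.524 ± 0.0832 RPKM, a 7.06-fold decrease. On the log2(RPKM + 1) scale, which understates the change of a gene this low, the change was -1.62 (SE 0.09, adjusted p = 6.94e-06). It rested on an estimated 225 to 233 reads in the controls and 31 to 39 reads after siRNA.

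Mmp13 (collagenase-3; ENSMUSG00000050578, chr9:7272514-7283331, plus strand) is the main fibrillar collagenase of rodent bone, made by osteoblasts and hypertrophic chondrocytes. It was at 17.18, 17.35 and 17.02 RPKM in the controls and at 6.31, 5.99 and 6.30 RPKM after siRNA. The libraries of each group were nearly alike, with a coefficient of variation of 0.961% in the controls and 2.94% after siRNA. Mmp13 was 2.77-fold lower (17.2 ± 0.165 against 6.20 ± 0.182 RPKM), with a log2 change of -1.34 (SE 0.07, adjusted p = 5.12e-06).

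Mmp14 (MT1-MMP; ENSMUSG00000000957, chr14:54431612-54445364, plus strand) is the membrane-anchored enzyme that activates proMMP2 together with TIMP2. It was at 64.7, 61.9 and 72.1 RPKM in the controls and 39.9, 40.4 and 43.8 RPKM after siRNA. Its groups too were apart, but the change was the smallest of the 4, 1.603-fold (log2 change -0.67, SE 0.07, adjusted p = 0.000195). Mmp14 kept 62.4% of its control mean, Mmp13 kept 36.1%, Mmp2 kept 16.97% and Mmp3 kept 14.2%.

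The enzymes of leukocytes did not move as a group. Mmp8 (collagenase-2, or neutrophil collagenase; ENSMUSG00000005800, chr9:7558456-7568485, plus strand) cuts the same fibrillar collagens as Mmp13. It was at 4.41, 4.35 and 2.67 RPKM in the controls and at 25.1, 23.3 and 19.9 RPKM after siRNA. All siRNA libraries were above all controls, and Mmp8 was 5.98-fold higher (3.81 ± 0.984 against 22.8 ± 2.65 RPKM, log2 change 2.32, SE 0.16, adjusted p = 2.01e-05).

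Mmp12 (macrophage elastase; ENSMUSG00000049723, chr9:7344381-7369499, plus strand) was the most abundant MMP in both groups. It measured 432.0, 467.3 and 420.4 RPKM in the controls and 461.0, 437.6 and 403.6 RPKM after siRNA. The 2 sets of libraries interleaved, with means of 439.9 ± 24.4 and 434.1 ± 28.9 RPKM, a log2 change of -0.02 (SE 0.08) and an adjusted p of 0.860.

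Mmp9 (gelatinase B; ENSMUSG00000017737, chr2:164940780-164955850, plus strand), the second enzyme that digests denatured collagen, was scarce. It was at 0.461, 0.662 and 0.481 RPKM in the controls and 0.360, 0.363 and 0.399 RPKM after siRNA. The siRNA libraries were all below the controls, and the mean was 1.43-fold lower (0.535 ± 0.111 against 0.374 ± 0.0217 RPKM). On the log2(RPKM + 1) scale, which understates the change of a gene this low, the change was -0.16 (SE 0.07). It was not called (adjusted p = 0.112). With a pseudocount of 0.01 the change was -0.49, also not called (adjusted p = 0.147). The values rested on an estimated 49 to 70 and 44 to 45 reads.

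Mmp19 (ENSMUSG00000025355, chr10:128790910-128800824, plus strand), which cuts basement membrane proteins and is known from both leukocytes and stroma, rose. Its values were 11.996, 10.83 and 11.32 RPKM in the controls and 19.43, 19.51 and 19.02 RPKM after siRNA. The groups were far apart for their spread, and Mmp19 was 1.70-fold higher (11.4 ± 0.585 against 19.3 ± 0.262 RPKM, log2 change 0.72, SE 0.07, adjusted p = 8.42e-05). It overlaps Tmem198b, on the opposite strand, which was at 4.88 to 7.57 RPKM over the 6 libraries. The use of strand in the counting is not given in the sources used here.

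Of the inhibitors, Timp1 (ENSMUSG00000001131, chrX:20870166-20874735, plus strand), a secreted inhibitor of most MMPs that also binds proMMP9, was at 492.0, 451.4 and 344.8 RPKM in the controls and at 218.7, 263.1 and 309.9 RPKM after siRNA. The third control and the third siRNA library came close to each other, though without overlap. Timp1 was 1.63-fold lower (429.4 ± 76.1 against 263.9 ± 45.6 RPKM, log2 change -0.70, SE 0.16, adjusted p = 0.00806), and with gene-wise variance alone the call was lost (adjusted p = 0.0718). The gene lies within Syn1, on the opposite strand, which was at 5.29 to 6.00 RPKM.

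Timp2 (ENSMUSG00000017466, chr11:118301069-118355740, minus strand) inhibits MMPs and also bridges proMMP2 to MMP14 at the cell surface. It measured 191.3, 182.6 and 186.6 RPKM in the controls and 154.6, 161.4 and 170.7 RPKM after siRNA. The groups did not overlap, but the decrease was only 1.15-fold (log2 change -0.20, SE 0.06, adjusted p = 0.0283). The call depended on the scaling of the libraries and on single libraries. It was lost with median ratio scaling (log2 change -0.09, adjusted p = 0.305), with quantile normalization, relative to Gapdh, and without control 1, control 2, siRNA 1 or siRNA 2 (adjusted p between 0.0671 and 0.120).

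**Figure D2:**
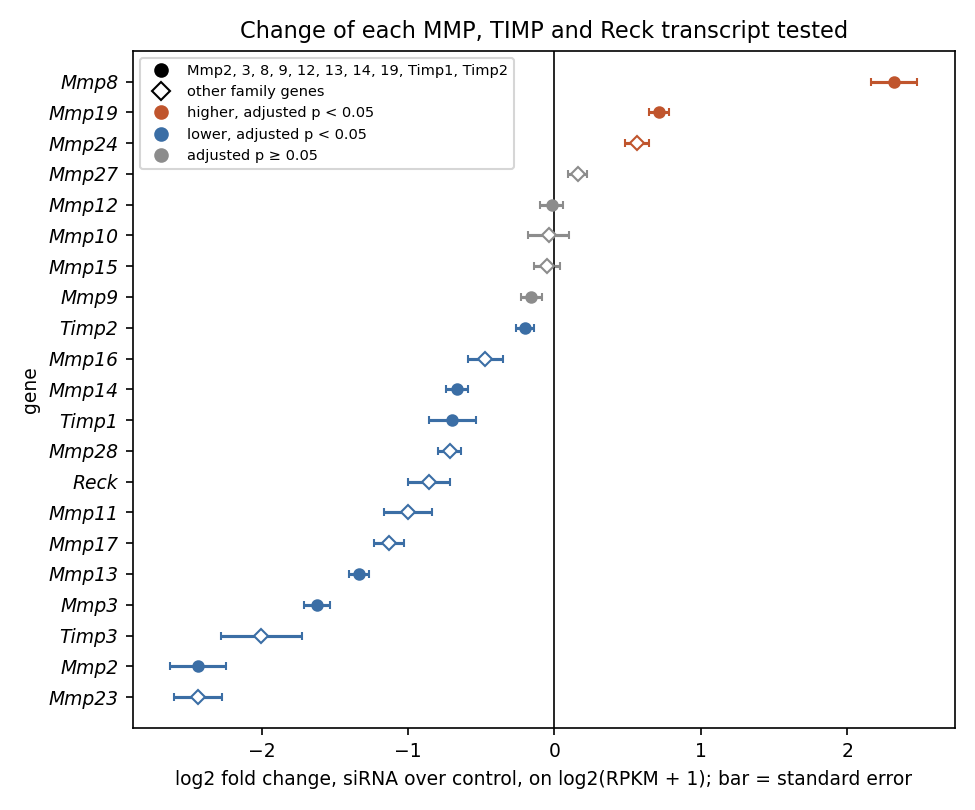
Change in log2(RPKM + 1), siRNA minus control, with its standard error (limma, n = 3 libraries per group), of the 10 members (filled) and the 11 other family genes tested (open diamonds), coloured by call. Mmp8 stands alone at 2.32, Mmp2 lies at -2.43 beside Mmp23 at -2.44, and the bars of Mmp12 cross 0.

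The opposite moves of the 2 collagenases changed which of them was the more abundant. Of the sum of Mmp8 and Mmp13 RPKM, Mmp13 made up 79.6%, 80.0% and 86.4% in the controls and 20.1%, 20.4% and 24.1% after siRNA. Mmp13 was thus the larger share in each control and Mmp8 in each siRNA library. The sum itself was 19.7 to 21.7 RPKM in the controls and 26.2 to 31.4 RPKM after siRNA. Of the gelatinases, Mmp2 made up nearly the whole, and the sum of Mmp2 and Mmp9 was 37.9 to 46.3 RPKM against 5.03 to 9.61 RPKM.

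Ratios within a library do not depend on how the libraries were scaled to each other. The ratio of Mmp8 to Mmp2 was 0.112, 0.117 and 0.0583 in the controls and 5.37, 3.38 and 2.16 after siRNA, a difference of 5.21 on the log2 scale (SE 0.50, 37.1-fold). Mmp8 relative to Mmp13 differed by 4.08 (SE 0.25, 16.9-fold), and Mmp12 relative to Mmp2 and Mmp13 by 2.59 and 1.45. Each of these leukocyte-to-stromal ratios was higher in every siRNA library than in any control. The same held for Mmp9 relative to Mmp2 and Mmp13, with differences of 2.12 and 0.98, although Mmp9 itself was not called.

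Ratios among the stromal enzymes differed too. Mmp13 relative to Mmp2 differed by 1.14 (SE 0.30) and Mmp14 relative to Mmp2 by 1.93 (SE 0.25), both without overlap. Mmp3 relative to Mmp2 did overlap between the groups (difference -0.20, SE 0.27, exact permutation p = 0.6), and a pseudocount of 1 turned its sign (0.81). Timp2 relative to Mmp2 was 5.28-fold higher after siRNA, while Timp1 relative to Timp2 was lower by 0.50 on the log2 scale. Timp1 relative to Mmp9, the proenzyme it binds, overlapped (difference -0.21, exact permutation p = 0.6). In all, 10 of 12 ratios did not overlap between the groups. Most of the ratios share Mmp2 or Mmp13 as denominator, so they are not separate results. Ratios of other gene pairs were not computed, and of single genes 35.9% lower and 19.8% higher did not overlap. For each of those 10 the two-sided exact permutation p over the 6 libraries was 0.1, the smallest that 3 against 3 can give, or 0.12 after Benjamini-Hochberg adjustment over the 12, so none can pass 0.05 in this design.

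Summed over the 8 MMPs, the level was 573 to 603 RPKM in the controls and 503 to 557 RPKM after siRNA, most of it Mmp12. Mmp8, Mmp9 and Mmp12 together took 73.8% to 78.3% of the sum in the controls and 84.3% to 87.3% after siRNA. Mmp2, Mmp3, Mmp13 and Mmp14 took 20.0% to 24.2% and then 9.22% to 11.9%. Leaving Mmp12 out, the sum of the other 7 was 136 to 153 RPKM in the controls and 96.2 to 99.2 RPKM after siRNA. Of this remainder Mmp14 stayed the largest share (45.4% to 47.1%, then 41.4% to 44.1%), while Mmp2 went from 27.4% to 29.9% down to 4.85% to 9.29%. Mmp8 went from 1.74% to 3.19% up to 20.0% to 26.1%. The sum of Timp1, Timp2 and Timp3 divided by the sum of the 8 MMPs was 1.278 to 1.499 in the controls and 0.722 to 1.10 after siRNA, without overlap. The lack of overlap depended on Timp3, which is not one of the 10 members. With Timp1 and Timp2 alone, the quotient was lower in control 3 than in siRNA 3.

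**Figure D3:**
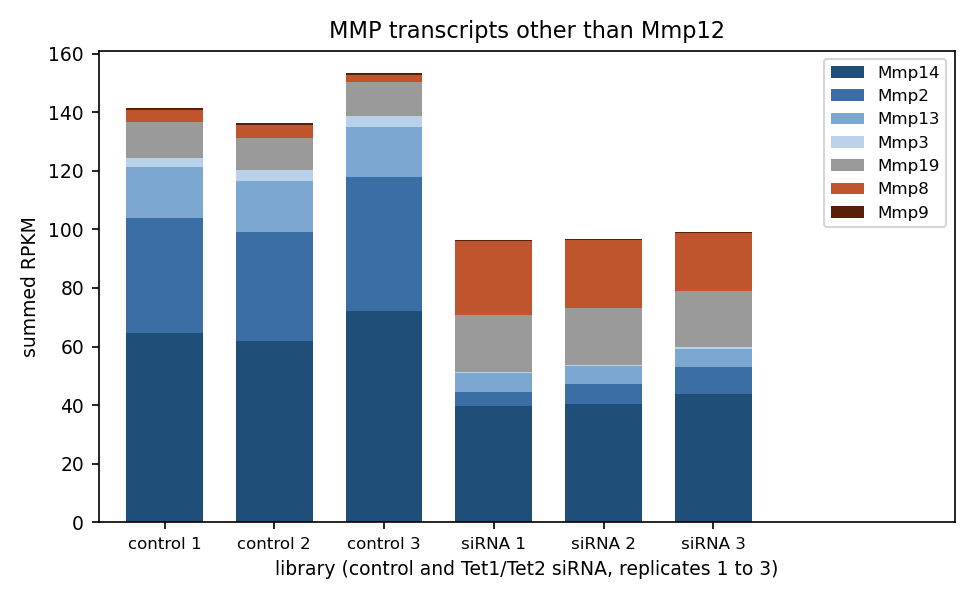
Stacked RPKM of the 7 MMPs other than Mmp12, 1 bar for each library. The bars reach 136 to 153 RPKM in the controls and 96.2 to 99.2 RPKM after siRNA, with less of Mmp14, Mmp2, Mmp13 and Mmp3 and more of Mmp19 and Mmp8.

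Markers of the cell types in the culture were set beside these results. Of 18 stromal genes listed, 15 were tested, 14 were called lower and none higher. Their summed level was 1119 to 1693 RPKM in the controls and 158 to 318 RPKM after siRNA. The median log2 ratio of the group means over the 15 genes was -2.51, beside -2.56 for Mmp2 and -2.82 for Mmp3. For Mmp13 and Mmp14 it was -1.47 and -0.68, and 13 of the 15 stromal genes lay below each of them. The part of the lower stromal RNA in the decrease of Mmp2, Mmp3, Mmp13 and Mmp14 was not tested.

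The stromal genes also differed between the siRNA libraries. All 15 were lowest in siRNA 1 and highest in siRNA 3, by a median of 1.75-fold. Mmp2 had the same lowest and highest library and a 1.97-fold range, as did the summed stromal markers (2.01-fold) and Timp3 (2.57-fold). Timp1 (1.42-fold) and, over small ranges, Mmp14 (1.10-fold), Timp2 (1.10-fold) and Mmp9 (1.11-fold) also had that lowest and highest library. Mmp13, by contrast, spanned 1.05-fold and Mmp19 1.03-fold within the siRNA group, without that order. Mmp8 ran the other way, highest in siRNA 1 and lowest in siRNA 3, as the summed macrophage markers, dominated by Lyz2, did. Of the single macrophage genes, only Lyz2, Cd68, Tyrobp and Marco had that order. Csf1r, Mrc1 and Cd163 had the reverse, and the rest had neither. In the controls, Mmp8 and the summed macrophage markers were both lowest in control 3, where Col1a1 was highest.

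**Figure D4:**
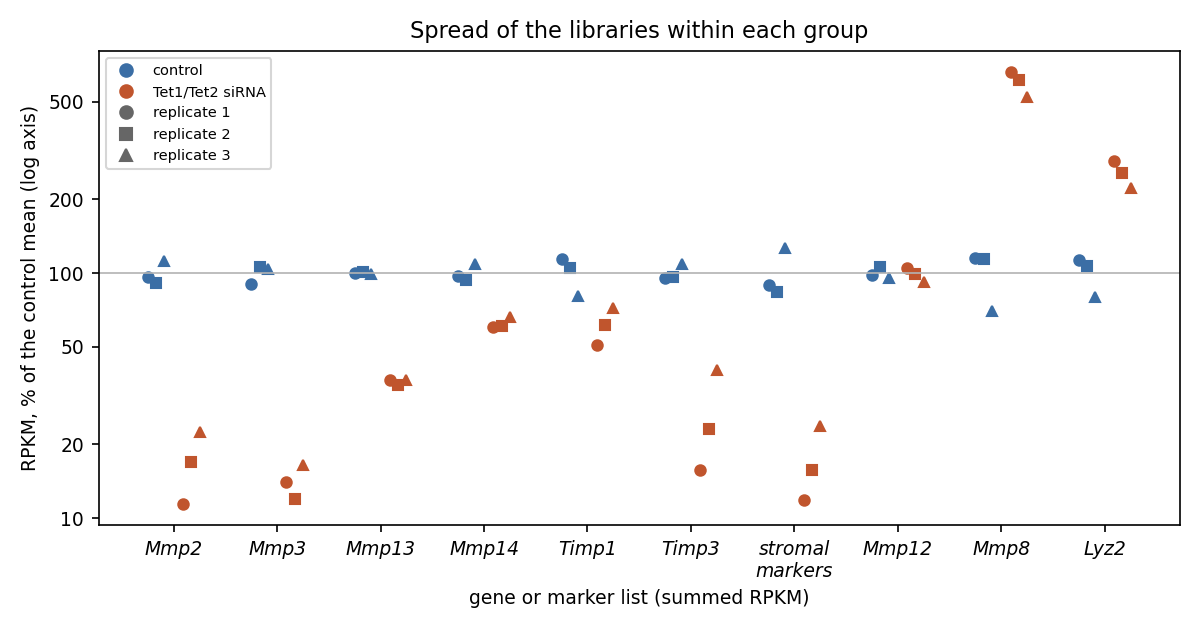
Level of each item in each library as percent of its control mean, on a log axis, for 8 genes of the family beside the macrophage gene Lyz2 and the summed stromal markers, with symbols marking the replicate number. Mmp2, Timp3 and the stromal sum are spread within the siRNA group, with siRNA 1 lowest and siRNA 3 highest, where the points of Mmp13 nearly coincide.

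Macrophage genes, 19 listed and 19 tested, were mixed, with 4 called lower, 9 higher and 6 not called. Their median log2 ratio was 0.20, and their sum, dominated by Lyz2, was 9507 to 12476 RPKM in the controls and 17770 to 20853 RPKM after siRNA. Lyz2 was called higher (log2 change 1.36, adjusted p = 0.001005), a call kept in 17 of 18 alternatives. With quantile normalization its change was 0.056 and the call was lost (adjusted p = 0.455). That setting gives genes of equal rank equal values in each library, which limits the change of a gene as abundant as Lyz2. The pan-leukocyte gene Ptprc was at 52.6 and 53.0 RPKM (adjusted p = 0.949), and Adgre1 at 305 and 350 RPKM (adjusted p = 0.0624). Mmp8, at a log2 ratio of 2.58, lay above all 19 of them, which reached at most 1.42. Mmp12, at -0.02, lay below 14 of them.

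Neutrophils, for which Mmp8 is named, left little trace in these libraries. Of 14 neutrophil genes 4 were tested, 2 of them called higher and 1 lower, and the sum of the list was 11.9 to 12.1 RPKM in the controls and 25.4 to 33.1 RPKM after siRNA. The defining genes S100a9 and Retnlg were at the lowest listed value of 0.001 RPKM in all 6 libraries, as 18360 rows were. Whether that value stands for absent RNA or for a gap in mapping or annotation cannot be told here. Ly6g was at 0.034 RPKM or less, Mpo at 0.022 or less and Elane at 0.113 or less. The sum was carried by Csf3r, the receptor of granulocyte colony-stimulating factor, which went from 6.92 to 15.0 RPKM (adjusted p = 3.85e-05), and S100a8, an alarmin also found in monocytes, which went from 1.95 to 12.7 RPKM (adjusted p = 4.13e-05). Camp, which encodes a neutrophil granule peptide, went the other way, from 1.45 to 0.058 RPKM (adjusted p = 5.52e-05), and Lcn2 was at 1.54 and 1.85 RPKM (adjusted p = 0.646).

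Osteoclasts, a further source of Mmp9, share genes with macrophages. Of 10 osteoclast genes 7 were tested, 3 of them called higher and 1 lower, with a summed level of 112 to 113 RPKM in the controls and 191 to 208 RPKM after siRNA. Atp6v0d2, a proton pump subunit, went from 57.6 to 139 RPKM, Acp5 (TRAP) from 3.71 to 10.4 RPKM and the protease gene Ctsk from 10.6 to 14.3 RPKM, all called higher. Tnfrsf11a, which encodes the receptor RANK, was lower, at 27.0 and 21.3 RPKM (adjusted p = 0.0161), a call lost in 3 other scalings, with gene-wise variance, and without siRNA 1 or siRNA 2 (adjusted p between 0.0578 and 0.119). Of the fusion genes, Ocstamp was at 0.178 and 0.0597 RPKM (adjusted p = 0.0548) and Dcstamp, untested, at 0.0277 and 0.167 RPKM. Oscar, also untested, was at 0.13 and 0.01 RPKM, and the defining receptor gene Calcr was at 0.008 RPKM or less. Of the other lists, 5 of 5 adipocyte genes were called higher. Fabp4 (277 to 616 RPKM) and Lpl (880 to 1201 RPKM) are also expressed by macrophages, and Lpl lost its call with quantile normalization (adjusted p = 0.344). The adipocyte genes Adipoq, Plin1 and Cidec went from 3.35 to 7.60, from 1.11 to 3.16 and from 1.13 to 4.06 RPKM. Of 6 endothelial genes 5 were tested, with Vwf among the 2 higher (1.93 to 6.10 RPKM), Kdr among the 2 lower (1.58 to 0.604 RPKM) and Cdh5 not called (adjusted p = 0.0613). Of 5 B cell and 5 T cell genes 1 each was tested and called higher, Cd79b (0.533 to 1.14 RPKM) and Cd4 (2.56 to 8.06 RPKM). None of 6 erythroid genes reached the minimum for testing. The part of a change in leukocyte makeup in the rise of Mmp8 and Mmp19 was not tested.

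Of the members, 4 lie in the MMP gene cluster of chromosome 9, in which 10 Mmp genes span 427.1 kb (chr9:7272514-7699585, GRCm38) in the order Mmp13, Mmp12, Mmp1b, Mmp3, Mmp1a, Mmp10, Mmp8, Mmp27, Mmp20 and Mmp7. The neighbours did not move together. Mmp13 fell, Mmp12 began 61.0 kb beyond it and was not called, Mmp3 fell, and Mmp8, 102.5 kb from Mmp3, rose. Mmp27 begins 2.91 kb from the end of Mmp8 and was at 14.80, 14.35 and 14.67 RPKM in the controls and 15.97, 16.32 and 17.004 RPKM after siRNA (log2 change 0.16, adjusted p = 0.0719). Mmp10 was at 0.621 to 1.40 RPKM and 0.780 to 1.05 RPKM (adjusted p = 0.837). The 4 remaining genes were not tested, and Mmp7 was at the lowest listed value in all libraries.

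**Figure D5:**
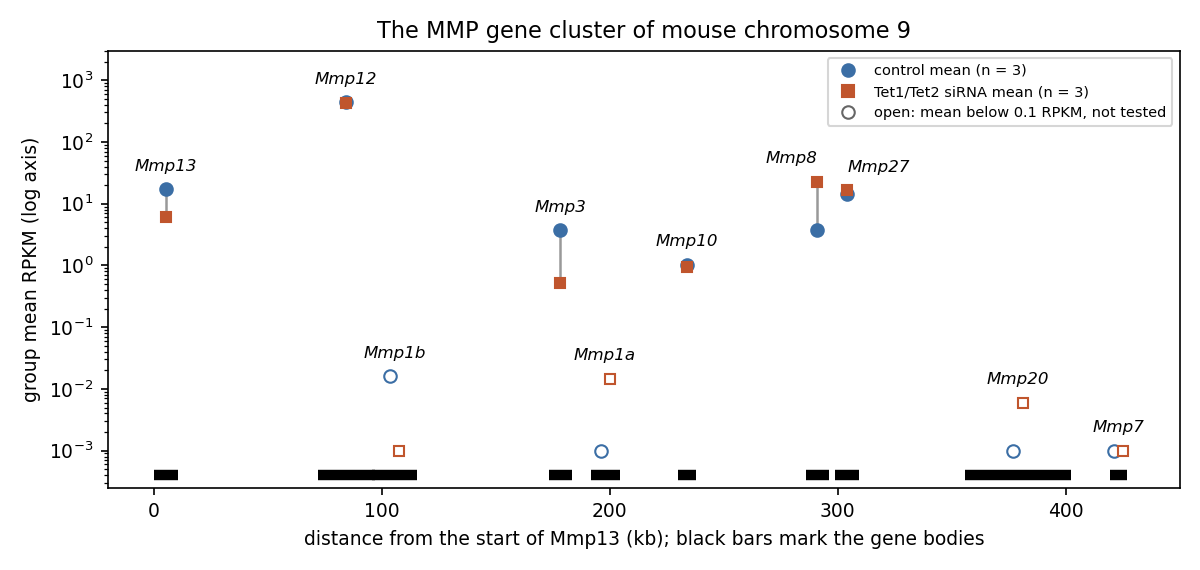
Group mean RPKM (log axis) of the 10 genes of the chromosome 9 cluster against distance from the start of Mmp13 in kb, with gene bodies as black bars and open symbols for genes under the minimum for testing. Mmp13 and Mmp3 drop, Mmp8 rises, and Mmp12, Mmp10 and Mmp27 hardly move.

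Many MMP promoters are known to respond to AP-1, the dimer of Fos and Jun proteins, through an element close to the transcription start. The 100 bases just upstream of each annotated start are shown for the 4 members of the cluster, since they lie side by side and differed in direction. They are RefSeq sequence on GRCm38.p6, plus strand, 5′ to 3′, from chr9:7272414-7272513 for Mmp13, chr9:7344297-7344396 and chr9:7347274-7347373 for the upstream and downstream starts of Mmp12, chr9:7445722-7445821 for Mmp3 and chr9:7558329-7558428 for Mmp8, and capitals mark a match to TGACTCA or its reverse complement TGAGTCA.
Mmp13: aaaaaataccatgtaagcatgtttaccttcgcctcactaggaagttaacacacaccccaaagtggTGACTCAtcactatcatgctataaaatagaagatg
Mmp12, upstream start: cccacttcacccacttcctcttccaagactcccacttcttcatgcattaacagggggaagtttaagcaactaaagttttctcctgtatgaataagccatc
Mmp12, downstream start: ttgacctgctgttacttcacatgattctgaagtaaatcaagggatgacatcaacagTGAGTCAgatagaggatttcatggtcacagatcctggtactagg
Mmp3: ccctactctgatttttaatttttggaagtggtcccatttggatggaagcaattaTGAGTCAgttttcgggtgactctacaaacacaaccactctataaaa
Mmp8: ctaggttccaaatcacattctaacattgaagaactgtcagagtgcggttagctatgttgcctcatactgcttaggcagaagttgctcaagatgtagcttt
The match began 35 bases before the start in Mmp13, 44 before the downstream start of Mmp12 and 46 before the start of Mmp3. The upstream start of Mmp12 and the start of Mmp8 held none. The letters were thus present at Mmp13 and Mmp3, which fell, at 1 of the 2 starts of Mmp12, which was not called, and not in this window of Mmp8, which rose. A link between the letters and the direction was not tested.

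Matches were also sought in windows of 300 bases, 250 before to 50 after the start. Counts for the family are by gene with any start counted, whereas shares of all promoters are by promoter. The 10 genes of the cluster have 12 promoters. The AP-1 letters were at 1 start or more of 3 of the 7 members with a promoter and 7 of the 10 genes of the cluster. They were at 0 of 13 genes of the family outside it, and at 5.20% of all 32851 promoters. In the cluster, Mmp10 held them 63 bases before its start and was not called, and Mmp1a, Mmp1b and Mmp7 were not tested. Outside it, without the letters, Mmp14, Timp1, Timp2, Mmp11, Mmp23, Mmp28, Timp3 and Reck fell. Mmp24 rose and Mmp15 was not called, also without them. A match to the RUNX letters TGTGGT or ACCACA, found in 16.8% of all promoters, was at 2 of the 7 members, 118 bases before the start of Mmp13 and 114 before that of Mmp14. It was also at 4 of 16 other family genes, Mmp1b, Mmp7, Mmp23 and Mmp27, of which Mmp23 fell, Mmp27 was not called and the others were not tested. Promoters of the cluster held between 0 and 7 CpG dinucleotides, the site of DNA methylation, against a median of 7 over all promoters (quartiles 3 and 20). Mmp14 held 10, Timp1 8 and Timp2 25. There was a promoter entry for 7 of the 10 members and none for Mmp2, Mmp9 and Mmp19. A match is a stretch of letters and not a shown binding site, and DNA methylation was not measured in these libraries.

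In the rest of the family, 18 genes were listed and 11 tested, with 7 called lower, 1 higher and 3 not called. Their median log2 change was -0.72, beside -0.09 over all genes tested. That scale, with its added 1, understates changes at low RPKM, and the median log2 ratio of their group means was -1.57. With a pseudocount of 0.01 the median change over all genes tested was -0.11. Mmp23, a membrane-anchored MMP, was at 16.3, 14.0 and 15.8 RPKM in the controls and 1.32, 2.15 and 2.73 RPKM after siRNA. Its log2 change of -2.44 (adjusted p = 1.83e-05) was like that of Mmp2. By the group means, Mmp23 was 7.42-fold lower and Mmp2 5.89-fold. Timp3, the inhibitor bound to the matrix, was at 176, 179 and 202 RPKM and then 29.1, 43.0 and 74.7 RPKM (3.79-fold lower, adjusted p = 0.000645). Its share of the 3 TIMP transcripts went from 20.5% to 27.5% in the controls to 7.24% to 13.5% after siRNA. At lower levels, Mmp17 and Mmp16, both membrane-type enzymes, were 6.86-fold and 5.21-fold lower, Mmp11 and Mmp28 were 2.85-fold and 3.87-fold lower, and Reck, a membrane-anchored MMP inhibitor, was 2.96-fold lower. Mmp24 alone was higher, at 1.46 and 2.64 RPKM (log2 change 0.57, adjusted p = 0.000742). Mmp10, Mmp15 and Mmp27 were not called.

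Transcripts of genes whose products activate proMMPs were mostly lower. Of 12 activator genes 9 were tested, and 7 were called lower, none higher and 2 neither (median log2 change -0.46). Plau, or urokinase, which makes plasmin, went from 221 ± 20.9 to 84.6 ± 3.61 RPKM (log2 change -1.37, adjusted p = 8.52e-06). Its receptor gene Plaur went from 60.8 to 37.4 RPKM (adjusted p = 0.000208), and the proprotein convertase gene Pcsk6 from 1.27 to 0.217 RPKM (adjusted p = 0.000269). Of 11 further inhibitors and clearance receptors 8 were tested, with 6 lower and 2 higher (median -1.40). Thbs2, which binds MMP2 for uptake, went from 44.9 to 4.81 RPKM, the procollagen processing enhancer gene Pcolce from 48.3 to 9.93 RPKM and the protease inhibitor gene Serpine2 from 81.4 to 23.1 RPKM. Those that rose were Serpinb2, the plasminogen activator inhibitor of macrophages, from 5.08 to 29.7 RPKM (adjusted p = 2.64e-05), and Lrp1, the endocytic receptor that clears MMPs, from 232 to 335 RPKM (adjusted p = 0.0214).

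The substrates fell with the stromal enzymes that cut them. Of 19 matrix substrates 17 were tested, and 16 were lower and none higher, with a median log2 change of -1.96. Col3a1 went from 125 to 14.1 RPKM, Col1a1 from 488 to 72.1 RPKM and Col1a2 from 437 to 76.4 RPKM. These collagen genes are also stromal markers, so the 2 lists share genes. Among 13 cell-surface and matrix partners, all tested, 8 were lower, 2 higher and 3 not called (median -0.43). The collagen receptor genes Mrc2, Ddr2 and Ddr1 were 5.52-fold, 4.18-fold and 4.02-fold lower, whereas Cd63, a tetraspanin that binds TIMP1, and Cd44, the hyaluronan receptor that holds MMP9 and MMP14, rose by 0.61 and 0.21.

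Of 17 genes for transcription factors known to act on MMP promoters, all tested, 6 were lower, 4 higher and 7 not called, with a median of -0.09, the same as over all genes. Runx2, the osteoblast factor that drives Mmp13, went from 1.17, 1.82 and 2.10 RPKM to 0.134, 0.166 and 0.109 RPKM (log2 change -1.23, adjusted p = 0.000133). The AP-1 partner Fosl1 went from 5.74 to 2.56 RPKM and Ets2 from 15.7 to 7.91 RPKM. Fos, another AP-1 member, went the other way, from 29.1 to 35.3 RPKM (adjusted p = 0.00659), and Mitf and Cebpb were higher by 0.30 and 0.19 on the log2 scale. Of 13 genes for cytokines that induce MMPs 10 were tested, with 4 lower, 3 higher and 3 not called (median -0.18). Il6 went from 2.79 to 0.175 RPKM and was at the lowest listed value in siRNA 3, Tgfb3 went from 29.5 to 4.95 RPKM and Tgfb2 from 3.81 to 1.08 RPKM. Osm, Pdgfb and Tgfb1 were higher by 0.36, 0.33 and 0.16. The counts of each list stand beside 29.8% called lower and 14.7% called higher over all genes tested. Over all these lists and the rest of the family, 54 genes were lower and 12 higher, the latter near the share over all genes. The count of higher genes rested on small changes. It was 7 without control 1, 5 without control 2, 6 without siRNA 1, 5 without siRNA 2 and 6 without siRNA 3. Lrp1, Cd44, Mitf, Cebpb and Tgfb1 each lost their call in these 5 fits, Osm lost it without control 2, siRNA 1 or siRNA 2, and Mmp16, called lower, lost it without siRNA 2 (adjusted p = 0.0504).

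Likeness of pattern was described by Pearson's r of log2(RPKM + 1) over the 6 libraries, among 11067 other genes whose mean reached 1 RPKM. Since the libraries form 2 groups, r mostly reflects the difference between those groups. For Mmp2, r was above 0.99 for 485 genes, led by Lrrc32, which presents latent TGF-β, Ptk7, a Wnt co-receptor, and Fam20a, a secretory pathway pseudokinase. For Mmp13 it was above 0.99 for 245 genes, and the closest were Ddx58 (the RNA sensor RIG-I, 40.16 and 6.499 RPKM), Maml3 and Gbp3, of which Ddx58 and Gbp3 are interferon-inducible. For Mmp8 it was above 0.99 for 177 genes, led by Sri, Pnpla7 and Gstm1. Mmp12 had none above 0.99, and its closest were Chchd5 (r = 0.977), Tssc1 (r = 0.964) and Supt3 (r = 0.958).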

How the data were processed

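RNA-seq of 6 libraries (2×100 paired-end reads from total RNA) was deposited as a single table. The authors trimmed the reads, mapped them to GRCm38 and computed gene abundance with DNASTAR Lasergene, and they deposited RPKM values, which the methods call FPKM. The annotation and the use of strand are not given in the sources used here. A further column with the authors' own p-value per row was not used. The lowest listed value is 0.001.

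The 36915 rows were reduced to 36870 symbols by keeping the row with the highest mean, and list genes held under an older symbol were renamed. Log2(RPKM + 1) was compared two-sided in limma 3.58.1 (R 4.3.3, lmFit, eBayes with trend) for the 13266 genes whose mean reached 0.1 RPKM, following Benjamini and Hochberg, with no covariate. On simulated libraries of 13266 genes, 200 of 200 genes changed by 2 on the log2 scale were recovered and 7 of 13066 unchanged genes were called. The changed genes were drawn from the more abundant ones. Recovery of smaller changes, or of genes as scarce as Mmp3 and Mmp9, was therefore not examined. Ratios within a library, with a pseudocount of 0.01, were compared by exact permutation.

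Both groups carry replicate numbers 1 to 3 in their labels. Deviations from the group means correlated with r = 0.149, 0.117 and 0.462 for numbers 1, 2 and 3, each above 0.1, and a fit with the number as a block was therefore added, although control 1 with siRNA 2 reached 0.332 and no source says what a number stands for. For the depth, the total was sought at which low values lay nearest to whole reads, which 55.4% to 59.1% did within 0.1 read (20% by chance at a fixed depth), so no count test was run. Positions are from GENCODE M21. Named genes were the members, the tested family genes, the 3 largest called rises and falls without overlap of each pathway list, the Tet genes, the 3 most abundant genes of marker lists where these reached the minimum for testing, their defining genes, and the 3 genes most like Mmp2, Mmp13, Mmp8 and Mmp12. Camp, Retnlg, S100a9, Calcr, Ocstamp, Dcstamp, Oscar, Plin1 and Cidec were named after their values were seen. So were the macrophage genes Cd68, Tyrobp, Marco, Csf1r, Mrc1 and Cd163. The members and lists were chosen with earlier results of these data known.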

Additional observations from a re-analysis of the deposited data

How the results depend on the processing

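The calls of Mmp2, Mmp3, Mmp13, Mmp14, Mmp8 and Mmp19 kept their direction and their side of the threshold in all 18 alternatives tried for each, which were other pseudocounts, filters, scalings, variance models, the replicate block, summed rows and each library left out. Scaling moved the median log2 change of all genes from -0.09 to 0.003 with median ratio scaling, 0.06 with quantile normalization and -0.16 when all libraries were set to 1 common sum. The Timp2 change was -0.085, -0.15 and -0.19 with median ratio scaling, quantile normalization and relative to Gapdh (adjusted p = 0.305, 0.106 and 0.306), and -0.24 to -0.17 with a library left out. Timp1 had a change of -0.70 with gene-wise variance (adjusted p = 0.0718). For genes that were not called the sign turned: Mmp9 was at 0.018 with quantile normalization, Mmp12 at 0.099 with median ratio scaling, 0.026 with quantile normalization and -0.064 to 0.031 with a library left out, Mmp10 at 0.019, 0.19 and -0.19 to 0.094 in the same 3 settings, Mmp15 at 0.088 with quantile normalization and -0.13 to 0.028 with a library left out, C1qc at -0.068 with quantile normalization, and Lcn2 between -0.044 and 0.38 with a library left out. The cause was not tested. Mmp27 was called higher in 3 alternatives. A minimum of 1 RPKM left Mmp9 untested.

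With the replicate block, which pairs the libraries by number, 6 members were lower and 2 higher, Timp2 had an adjusted p of 0.0239 and Mmp9 of 0.123, and no call of a member changed. Over all genes the block called 4468 lower and 2248 higher, beside 3952 and 1953 without it. Quantile normalization called 2627 lower and 3607 higher, and the values relative to Gapdh 1287 higher. By the rule of more than a 2-fold change in RPKM + 1 at p under 0.05 without adjustment, 747 genes were lower and 126 higher. Of the members, 3 were lower and 1 higher. Of the pathway genes, 12 were higher, 6 with all libraries set to 1 common sum, 4 relative to Gapdh, and 5 to 13 with a library left out. The Mmp3 to Mmp2 ratio differed by 0.81 with a pseudocount of 1, an alternative chosen after seeing the data. No count of reads is given for any gene, so precision at low levels such as that of Mmp9 could not be taken from counting error.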
